A study of Homo sapiens with 12 samples.

Results

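EC359 was given alone, at 150 nM for 7 h, to OVCAR8 cells, an established line of human ovarian cancer, and polyadenylated RNA from these cells and from cells given vehicle was sequenced in 3 libraries each, 6 of the 12 libraries of the series. EC359 is a small molecule that was designed to block the binding of leukemia inhibitory factor (LIF) to its receptor, LIFR. All libraries that the labels assign to EC359 alone or to control were used, and the comparison covered the 26485 genes of the annotation. The other 6 libraries came from the same line after trametinib at 100 nM, an inhibitor of the kinases MEK1 and MEK2, without EC359 (Trametinib) or with EC359 at 150 nM (Combination), 3 libraries each. Those 6 share no library with the EC359 and control groups and were used to ask for the effect of EC359 in the presence of trametinib. One line, one dose and one time point were measured, no library with added LIF is among the 12, and nothing in the labels says that the libraries of a group came from separate cultures, so p-values measure the spread between these libraries, which may be technical.

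LIF is a secreted cytokine of the IL6 family. It binds LIFR, which pairs with the shared receptor chain gp130 (encoded by IL6ST), and the JAK kinases attached to the pair phosphorylate the transcription factor STAT3. STAT3 then enters the nucleus and switches on, among others, SOCS3, whose product shuts the receptor down again. The same receptors also feed the RAS-RAF-MEK-ERK cascade, and ERK output is read in immediate early genes such as FOS and EGR1 and in feedback genes such as the DUSP phosphatases and Sprouty proteins. In ovarian tumors LIF signaling is known for supporting survival and growth of the tumor cells.

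Between 24928675 and 32467283 reads per library were assigned to genes, and 14865 genes were tested after a filter on low counts. Levels are given as CPM (read counts brought to one library size with TMM factors), as mean ± SD (n = 3 libraries) unless each library is listed, and such values do not compare one gene with another because they are not divided by gene length. Over all genes tested, log2 CPM of 2 libraries of one group correlated with Pearson's r of 0.993 to 0.994, and that of an EC359 and a control library with r of 0.975 to 0.977 (across genes, which are not independent replicates). The line expressed the ovarian epithelial factor PAX8 at 73.7 to 77.9 CPM in control and at 107 to 117 CPM with EC359, together with KRT7, KRT8, KRT18, MSLN, VIM and CDH2. EPCAM was low, at 9.30 to 12.4 CPM, CDH1 lay at or under 0.235 CPM in every library, and MUC16, which encodes the tumor marker CA125, had no count in any of these 6 libraries. WT1 was low too, at 3.96 to 4.68 CPM in control and 3.63 to 4.26 CPM with EC359. KRT19 had no count in control and reached at most 0.0845 CPM with EC359. Of 16 markers of blood, endothelium, fibroblasts, red cells, fat, liver and neurons, 6 were at 0 in every control library and 6 in every EC359 library, among them PTPRC, DCN, HBB and ADIPOQ in both, and 13 were under 1 CPM in every library of each group. The summed level of the 16 was 66.3 to 72.6 CPM in control and 74.4 to 78.7 CPM with EC359, most of it from CD68 and PDGFRB.

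EC359 changed the expression of many genes within 7 h, and large changes were mostly increases. With thresholds of 0.05 for the Benjamini-Hochberg adjusted p of edgeR's quasi-likelihood test and of 2-fold for the change, 623 genes were upregulated and 415 downregulated, which is 4.19% and 2.79% of the genes tested. Of these, 117 rose and 36 fell at least 4-fold, 39 rose and 5 fell at least 8-fold, and 13 rose and 0 fell at least 16-fold. The libraries of a group were so alike (biological coefficient of variation 3.95%) that small changes were called too. Without a minimum fold change, 4576 genes (30.8%) were higher and 4501 (30.3%) were lower with EC359, and 6550 of them changed by less than 1.5-fold. These 2 shares are the background against which the counts of gene lists below are to be read, and the median log2 fold change of all genes was -0.01. When the libraries were scaled by total counts alone, that median was -0.15 and 3115 genes were higher against 6677 lower, and the split of the genes changed at least 2-fold was 475 upward and 589 downward. That scaling also turned the medians of 14 of the 57 gene lists and families negative, all of them between 0.01 and 0.13 before, so for lists with such small medians the direction depends on the scaling. Fold changes below are on the TMM scale. In RNA from a whole culture, a change in the share of cells and a change in RNA per cell cannot be told apart.

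The upregulated genes were lowly expressed before treatment, with a median of 6.71 CPM in control against 20.5 CPM for all genes tested, and the downregulated genes lower still, at 2.25 CPM. Together the 623 upregulated genes took 1.88% to 1.91% of the counted reads in the control libraries and 5.67% to 5.69% in the EC359 libraries. The 415 downregulated genes went from 0.443% to 0.447% of the reads down to 0.167% to 0.170%. In 606 of the 623 and 405 of the 415 genes every EC359 library lay on one side of every control library. Both sets were chosen by a test on these same libraries, so this separation follows largely from the choice. The same holds for single genes below whose groups are said to lie apart.

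**Figure D1:**
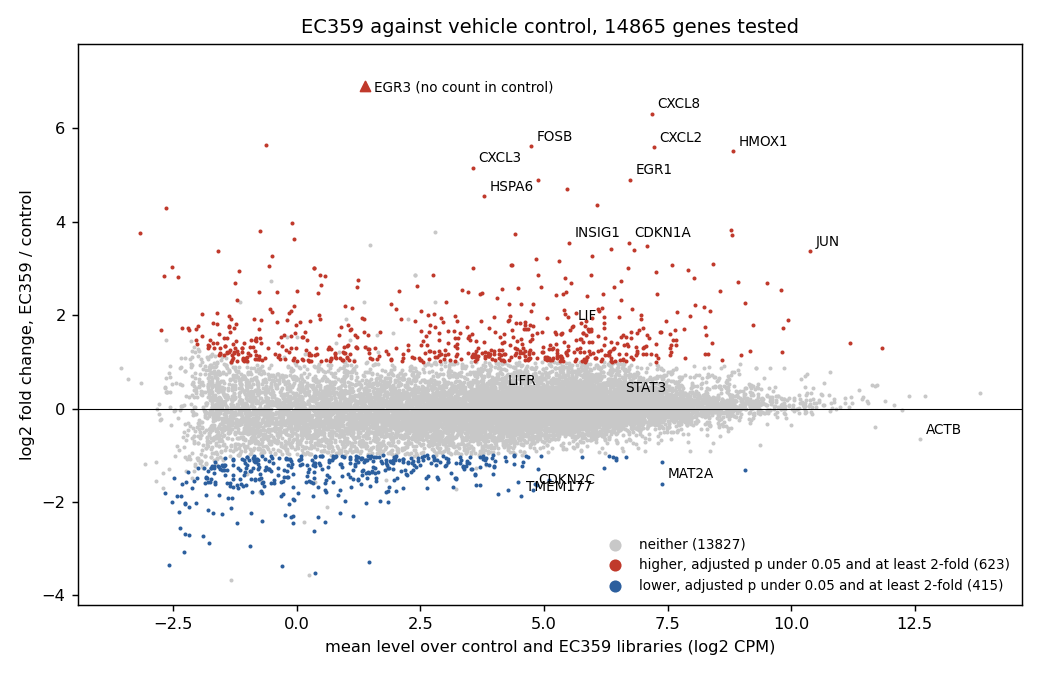
Each point is one of the 14865 genes tested; the x axis is its mean level over the control and EC359 libraries (log2 CPM) and the y axis its log2 fold change with EC359. The 623 upregulated genes (red) reach a log2 fold change of 6.31 in CXCL8 among genes with counts in control, the 415 downregulated genes (blue) lie mostly at low levels, and EGR3, without a count in control, is drawn as a triangle at the upper edge.

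In the LIF axis itself, EC359 raised the ligands strongly and the receptors a little. LIF (chr22:30240447-30246851 in hg38, as are all coordinates of genes here) was at 21.2, 22.2 and 21.7 CPM in the control libraries and 74.3, 72.8 and 74.5 CPM in the EC359 libraries. All EC359 libraries lay above all controls, by a log2 fold change of 1.77 with a standard error of 0.047 (adjusted p = 4e-38). IL6, the cytokine that names the family, was at 11.6, 13.2 and 13.1 CPM in control and 85.8, 79.8 and 78.7 CPM with EC359. IL11, which also signals through gp130, was at 11.7, 10.6 and 10.2 CPM and 73.4, 74.9 and 76.1 CPM. Both were higher in every EC359 library, with log2 fold changes of 2.68 (adjusted p = 4.7e-44) and 2.79 (adjusted p = 1.9e-44). CLCF1, a further ligand of the family, rose from 26.0 ± 0.737 to 98.7 ± 2.09 CPM (log2 fold change 1.93).

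Of the receptors, LIFR (chr5:38474963-38595405), the target of the compound, was at 16.8, 13.9 and 15.6 CPM in control and 19.2, 21.0 and 19.9 CPM with EC359. The groups did not overlap, and the log2 fold change was 0.38 (95% interval 0.25 to 0.51, adjusted p = 2.4e-06). IL6ST was far more abundant, at 293, 288 and 311 CPM in control and 416, 408 and 411 CPM with EC359, a log2 fold change of 0.47 (adjusted p = 6.2e-20). Per kilobase of merged exons, which allows levels of different genes to be compared, gp130 mRNA stood at 32.7 CPM per kb in control, against 1.48 for LIFR and 5.46 for LIF. OSMR, the receptor chain for oncostatin M, rose by a log2 fold change of 0.88. Of the 12 ligands and receptors of the family that were tested, 10 were higher and 0 lower, 4 of them at least 2-fold, and the median was 0.67 on the log2 scale. CTF1 (-0.41) and IL11RA (-0.22) did not pass the test.

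Downstream of the receptor, the mRNA of the signal transducer STAT3 rose slightly and that of its feedback inhibitor SOCS3 more. STAT3 was at 83.8, 86.5 and 84.6 CPM in control and 103, 98.4 and 97.7 CPM with EC359, a log2 fold change of 0.23 (adjusted p = 1.1e-08). SOCS3, the STAT3-induced inhibitor of gp130 receptors, was at 19.1, 20.2 and 21.1 CPM in control and 61.8, 61.5 and 59.7 CPM with EC359, with all EC359 libraries above the controls (log2 fold change 1.60, adjusted p = 1.3e-34). Of 22 JAK, STAT, SOCS and PIAS genes, 12 were higher and 2 lower, with a median of 0.17, and SOCS3 and SOCS1 (1.15, at only 0.803 CPM in control) were the 2 that rose at least 2-fold.

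Genes that STAT3 is known to activate split into a majority that rose and a few that fell. Of 18 such genes, 14 were higher, 11 of them at least 2-fold, and 4 were lower. The median was 1.13 on the log2 scale. PIM1, a kinase that favors survival, was at 14.4, 14.2 and 16.5 CPM in control and 110.2, 109 and 108 CPM with EC359, all apart, and its relative PIM3 rose from 76.0 ± 1.88 to 278 ± 10.4 CPM. JUNB (2.93), VEGFA (2.09) and CEBPB (1.69) rose as well, and most of these genes also answer to ERK, NF-kappaB or stress kinases. The 4 that fell were BCL2L1 (-0.65), which encodes the survival factor BCL-XL, BIRC5 (-0.55), which encodes survivin, CCND1 (-0.33), which encodes cyclin D1, and HIF1A (-0.28), the oxygen-regulated factor, at 354, 350.2 and 358 CPM in control and 294, 284 and 298 CPM with EC359. FASLG, the ligand of the death receptor FAS, had no count in any of the 6 libraries.

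**Figure D2:**
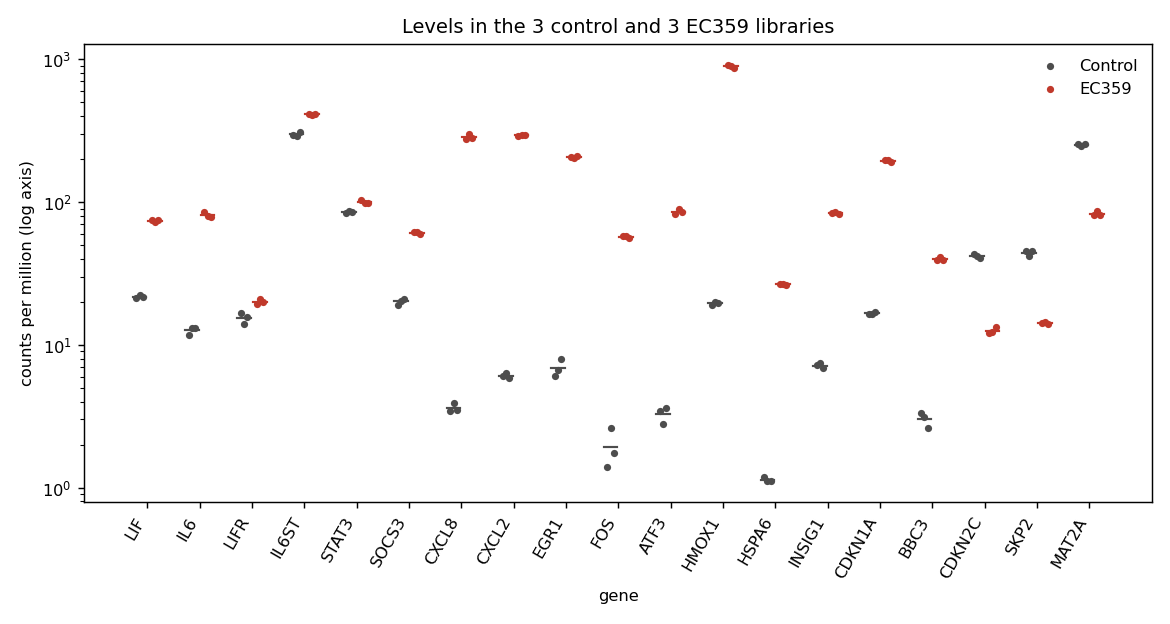
The y axis gives CPM (log axis) of 19 genes named on the x axis in the 3 control libraries (grey) and the 3 EC359 libraries (red), and the short lines are group means. The libraries of a group lie close together: LIF moves from about 21.7 to 73.9 CPM and HMOX1 from 19.6 to 892 CPM, whereas CDKN2C, SKP2 and MAT2A are lower with EC359.

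Chemokines were among the genes that rose most. CXCL8 (chr4:73740506-73743716), the neutrophil attractant interleukin 8, was at 3.43, 3.90 and 3.50 CPM in the control libraries and 276, 301 and 283 CPM in the EC359 libraries. No library of one group came near the other, and the fold change was 79.2 (log2 fold change 6.31, standard error 0.051, adjusted p = 1.1e-63). CXCL2, which lies in the same cluster on chromosome 4 and binds the same receptor, CXCR2, was at 6.03, 6.31 and 5.86 CPM and 289.9, 296 and 294 CPM, a fold change of 48.3. CXCL1 rose from 6.25 ± 0.428 to 128 ± 2.05 CPM and CXCL3 from 0.637 ± 0.0972 to 22.9 ± 1.17 CPM. CXCL1, CXCL2 and CXCL3 are close copies of one another, and reads with several placements may have been divided among them. CCL20, an attractant of lymphocytes and dendritic cells, rose by a log2 fold change of 2.61. Of 9 chemokines tested, 6 were higher and 0 lower, with a median of 2.61, and CXCL16 (-0.07), CCL28 (0.18) and CCL26 (0.92) did not pass the test.

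These chemokines are textbook targets of NF-kappaB, a dimeric factor that is held in the cytoplasm by IkB proteins, and the genes of its own feedback loop rose with them. NFKBIA, which encodes IkBalpha, was at 93.8, 97.1 and 92.5 CPM in control and 435, 447 and 429 CPM with EC359 (log2 fold change 2.21, adjusted p = 5.1e-55). TNFAIP3, the ubiquitin-editing inhibitor A20, was at 13.7, 14.8 and 14.1 CPM and 152, 155 and 145 CPM (log2 fold change 3.40, adjusted p = 1.6e-54). In both genes all EC359 libraries were above all controls. ZC3H12A, the RNase Regnase-1 that degrades cytokine mRNAs, rose from 5.57 ± 0.102 to 51.3 ± 1.38 CPM, and NFKBIZ from 7.19 ± 0.269 to 51.9 ± 0.607 CPM. Of 24 subunits and feedback targets, 23 were higher, 14 of them at least 2-fold, and 1, IKBKE (-0.32), was lower, with a median of 1.16. The subunits RELA (0.73), NFKB1 (0.90), NFKB2 (1.15), RELB (1.46) and REL (1.54) were all among those higher. IER3 (2.05) is also in this count, but its gene has several placements in the genome and its value is uncertain.

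Since these genes rose together, the sequence before their transcription starts is shown. The lines give the 130 bases before the start in RefSeq (GRCh38.p14), 5′ to 3′ on the gene's strand, and capitals mark the letters GGANTTTCC, a short form of the kB site to which NF-kappaB binds, searched on both strands.
CXCL8, chr4:73740439-73740568, plus strand: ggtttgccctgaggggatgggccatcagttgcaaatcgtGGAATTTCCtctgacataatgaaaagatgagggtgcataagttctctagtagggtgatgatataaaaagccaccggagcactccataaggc
CXCL2, chr4:74099196-74099325, minus strand: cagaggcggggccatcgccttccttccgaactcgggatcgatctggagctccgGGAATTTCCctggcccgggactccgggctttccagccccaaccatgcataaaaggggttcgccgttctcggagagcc
CXCL3, chr4:74038690-74038819, minus strand: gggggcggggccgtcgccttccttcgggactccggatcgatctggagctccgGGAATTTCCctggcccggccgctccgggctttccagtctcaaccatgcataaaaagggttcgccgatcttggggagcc
CXCL1, chr4:73869263-73869392, plus strand: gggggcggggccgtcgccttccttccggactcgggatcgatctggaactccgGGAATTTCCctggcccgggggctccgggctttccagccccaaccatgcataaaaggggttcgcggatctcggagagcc
NFKBIA, chr14:35404750-35404879, minus strand: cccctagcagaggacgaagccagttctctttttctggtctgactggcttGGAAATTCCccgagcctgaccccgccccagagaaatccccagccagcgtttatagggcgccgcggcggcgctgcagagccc
TNFAIP3, chr6:137867129-137867258, plus strand: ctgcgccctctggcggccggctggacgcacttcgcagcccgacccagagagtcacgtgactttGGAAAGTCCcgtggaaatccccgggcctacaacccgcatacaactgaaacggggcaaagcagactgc
Each window held 1 match, which began 91 bases before the start in CXCL8, 77 in CXCL2, 78 in CXCL3 and CXCL1, 81 in NFKBIA and 67 in TNFAIP3. In NFKBIA and TNFAIP3 the match lay on the opposite strand. The gene models of the annotation used for counting begin up to 85 bases before the RefSeq starts of these 6 genes. Over the 250 bases before the start, 1.47% of all 27305 promoters in the table held these letters. Among the chemokines tested, 5 of 8 with a window held them, namely the 4 shown and CXCL5 (log2 fold change 0.40). CCL20, which rose by 2.61 on the log2 scale, did not hold them, nor did CCL26 and CCL28. The windows of CXCL1, CXCL2 and CXCL3 are close copies, so their matches are not independent. Whether NF-kappaB raised any of these genes was not tested. Among the NF-kappaB subunits and feedback targets, 6 of 20 with a window held the letters, namely NFKB1, REL, NFKBIA, NFKBIZ, TNFAIP3 and ICAM1. ZC3H12A, TRAF1, RELA and NFKB2 rose too and had no match, which says only that these letters are absent from that window.

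Other inflammatory genes rose as well. Of 11 cytokines and related genes, 9 were higher, 5 of them at least 2-fold, with a median of 0.71. TNFSF9, the ligand of the T cell receptor 4-1BB, rose from 26.4 ± 2.49 to 117 ± 2.27 CPM, and CSF1, the macrophage growth factor, from 9.97 ± 0.356 to 35.6 ± 0.882 CPM. PTGS2, which encodes the prostaglandin enzyme COX-2, stayed rare, at 0.129 ± 0.0127 CPM in control and 1.27 ± 0.251 CPM with EC359 (log2 fold change 3.25). IL1B was the member that fell (-0.73). Interferon-stimulated and antigen presentation genes did not move as a group: of 40, 14 were higher and 9 lower, with a median of 0.09. IRF1 rose (1.24), whereas IFIT5 fell from 12.6 ± 0.215 to 4.83 ± 0.460 CPM and GBP1 from 11.5 ± 1.16 to 5.23 ± 0.491 CPM.

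Immediate early genes, which cells transcribe within minutes of a stimulus without new protein, were high with EC359 at 7 h. FOS (chr14:75278778-75282234) was at 1.39, 2.63 and 1.74 CPM in control and 58.1, 57.8 and 55.9 CPM with EC359, a log2 fold change of 4.89 (standard error 0.11, adjusted p = 4.6e-22). EGR1 (chr5:138465492-138469315), a zinc finger factor and a standard readout of ERK, was at 6.07, 6.66 and 7.98 CPM and 206, 204 and 211 CPM (log2 fold change 4.90, adjusted p = 1.1e-38). For both genes every control library lay far below every EC359 library. JUN, the partner of FOS in the AP-1 dimer, went from 236 ± 2.39 to 2446 ± 7.15 CPM, the largest gain in CPM among genes at least 2-fold changed except FLNC, and FOSB from 1.07 ± 0.0451 to 52.3 ± 2.80 CPM. EGR3 had no count in any control library and was at 5.22 ± 0.569 CPM with EC359, which is at least 163-fold higher than the 3 counts over the control group that a count of 0 allows. Of 21 AP-1, EGR and NR4A genes, 20 were higher, 17 of them at least 2-fold, with a median of 2.74 whether EGR3 is taken as fitted or at its bound; SRF, the factor that switches many of them on, was the one that fell (-0.43).

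The promoter of EGR1 is shown because it carries CArG boxes, the sites of SRF, in capitals. A CArG box, searched by its name's definition, lay in 1.14% of all promoters over 250 bases.
EGR1, chr5:138465349-138465478, plus strand: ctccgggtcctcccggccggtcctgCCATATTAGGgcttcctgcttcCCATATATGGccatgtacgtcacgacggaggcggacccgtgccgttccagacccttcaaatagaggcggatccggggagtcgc
In the 130 bases before the start there were 2 matches, which began 105 and 83 bases before it.

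Genes that restrain ERK signaling, usually induced by ERK itself, rose too. DUSP1, a phosphatase of JNK, p38 and ERK, was at 197, 202 and 193 CPM in control and 1249, 1286 and 1261 CPM with EC359 (log2 fold change 2.68, adjusted p = 1.6e-60). SPRY4, a Sprouty inhibitor of receptor signaling, rose from 19.5 ± 0.663 to 81.0 ± 1.13 CPM, and the ERK phosphatases DUSP6 and DUSP5 from 4.08 ± 0.385 to 14.9 ± 0.260 CPM and from 57.9 ± 1.53 to 186 ± 2.53 CPM. Of 21 ERK feedback genes, 16 were higher, 9 of them at least 2-fold, and 2 lower, EPHA4 (-0.90) and CCND1, with a median of 0.78. Another Sprouty gene, SPRY2, rose by 1.26 on the log2 scale, the ETS factor genes ETV4 (0.24) and ETV5 (0.41) rose less than 2-fold, and ETV1 (-0.11) did not pass the test. HBEGF and AREG, ligands of the EGF receptor, rose by 1.95 and 1.99, the latter from only 0.534 to 2.17 CPM, and the adaptor IRS2 rose from 52.2 ± 1.30 to 196 ± 8.69 CPM. Of 23 genes of the EGFR family, its ligands and adaptors, 13 were higher and 5 lower, with a median of 0.28.

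Stress programs were prominent among the upregulated genes. In the integrated stress response, phosphorylation of the initiation factor eIF2alpha by one of a set of kinases favors translation of ATF4, which then activates ATF3, DDIT3, SESN2 and amino acid transporters. ATF3 (chr1:212565334-212620777) was at 3.46, 2.79 and 3.62 CPM in control and 82.4, 89.1 and 84.6 CPM with EC359, a log2 fold change of 4.70 (adjusted p = 3.5e-53). PPP1R15A, the phosphatase subunit GADD34 that ends the response, was at 133, 130.3 and 127 CPM and 850.4, 856 and 832 CPM. Every EC359 library was above every control in both. ATF4 rose from 341 ± 5.75 to 655 ± 26.5 CPM, under 2-fold (log2 fold change 0.94), DDIT3, which encodes CHOP, from 9.58 ± 0.422 to 16.5 ± 1.0 CPM, and SESN2 from 24.6 ± 0.513 to 90.0 ± 1.87 CPM. Of 20 factors of the response, 14 were higher, 11 of them at least 2-fold, with a median of 1.06. The 5 that were lower were EIF2S1, which encodes eIF2alpha itself, the kinases EIF2AK1, EIF2AK2 and EIF2AK4, and ATF5, with EIF2AK4 lowest (-0.34), while the kinase gene EIF2AK3 rose (1.18).

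Among the genes of amino acid supply, the transporters moved most. SLC7A11, the cystine importer, was at 33.4, 30.1 and 30.9 CPM in control and 149, 161 and 163 CPM with EC359 (log2 fold change 2.33, adjusted p = 6.7e-48), SLC38A2 rose from 124 ± 5.32 to 529.6 ± 15.5 CPM, and SLC3A2, the partner chain of SLC7A11, from 197 ± 1.68 to 444 ± 5.02 CPM. Of 26 genes, 18 were higher and 3 lower, with a median of 0.38, and ASNS (0.70) and PHGDH (0.46) rose less than 2-fold. The cytosolic tRNA synthetases, which ATF4 also drives, hardly moved: 11 of 20 were higher and 4 lower, none at least 2-fold, and their median of 0.13 was under 0 when libraries were scaled by total counts. In the endoplasmic reticulum, 14 of 33 chaperones and unfolded protein response genes were higher and 8 lower, with a median of 0.06. DNAJB9 (1.97), HERPUD1 (1.2) and the sensor ERN1 (1.12) rose at least 2-fold, while HSPA5, the main ER chaperone BiP, rose by only 0.20.

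Cytosolic heat shock genes, controlled by HSF1, rose broadly. HSPA6, an inducible HSP70 that is nearly silent in unstressed cells, was at 1.18, 1.11 and 1.12 CPM in control and 26.6, 26.7 and 26.4 CPM with EC359, a fold change of 23.3 (adjusted p = 4.1e-41). DNAJB1, the HSP40 partner of HSP70, was at 267, 263 and 272 CPM and 937, 917 and 918 CPM, and BAG3 rose from 115 ± 1.91 to 293 ± 0.463 CPM. HSPA1A and HSPA1B, the main inducible HSP70 genes, were at 57.0, 65.5 and 52.6 and 63.9, 72.3 and 53.3 CPM in control and at 716, 771 and 982 and 695, 786 and 999.6 CPM with EC359. They are near-identical copies with several placements, among which reads may have been divided, so that neither value can be assigned to a single gene. Of 35 chaperones and co-chaperones, 29 were higher, 7 of them at least 2-fold, and 2 lower, with a median of 0.38. HSP90AA1, already at 6023 CPM, gained 0.28 on the log2 scale. Of 19 ubiquitin genes, 14 were higher against 2 lower. Proteasome subunits stayed near the median of all genes, with 20 of 47 higher, 14 lower and a median of 0.03.

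The HSPA6 promoter is given with the letters GAANNTTC, the core of a heat shock element, in capitals. They lay in 5.85% of all promoters over 250 bases.
HSPA6, chr1:161524410-161524539, plus strand: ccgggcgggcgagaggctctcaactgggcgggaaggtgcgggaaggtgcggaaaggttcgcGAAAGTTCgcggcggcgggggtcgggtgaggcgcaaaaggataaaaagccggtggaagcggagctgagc
The match began 69 bases before the start. Of 29 heat shock genes with a window, 8 held the letters, namely HSPA1A, HSPA1B, HSPA6, HSPA8, DNAJA1, DNAJB6, HSPB1 and CHORDC1, and DNAJB1 and BAG3 did not.

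Antioxidant genes under NRF2, the factor that KEAP1 degrades in unstressed cells, rose with one very large change. HMOX1 (chr22:35381067-35394214), heme oxygenase 1, was at 19.1, 20.1 and 19.7 CPM in control and 914, 899 and 862 CPM with EC359. The EC359 libraries lay 45.4-fold above the controls in the mean (log2 fold change 5.50, standard error 0.034, adjusted p = 7.2e-70). TXNRD1, thioredoxin reductase, rose from 424 ± 2.92 to 1407 ± 13.1 CPM, SQSTM1, the autophagy receptor p62 that also binds KEAP1, from 416 ± 8.29 to 1552 ± 38.2 CPM, and GCLM, a subunit of the enzyme that starts glutathione synthesis, by a log2 fold change of 1.57. MAFG, the DNA-binding partner of NRF2, rose from 40.8 ± 1.95 to 179 ± 2.33 CPM, and BACH1, its competitor, by 1.26. Of 35 genes, 30 were higher and 0 lower, 8 of them at least 2-fold, with a median of 0.40. NQO1, the usual NRF2 marker, rose by only 0.40, and the 3 AKR1C genes tested did not pass the test.

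GPX4 is the peroxidase that holds back ferroptosis, a cell death by iron-dependent lipid peroxidation. It was at 114, 114 and 113 CPM in control and 122, 116 and 116 CPM with EC359. The log2 fold change of GPX4 was 0.05 (95% interval -0.01 to 0.11), which did not pass the test (adjusted p = 0.15), and it was -0.08 with an adjusted p of 0.020 when scaled by total counts. Of 35 ferroptosis and iron genes, 17 were higher, 7 of them at least 2-fold, and 6 lower, with a median of 0.09. The 7 were HMOX1, CDKN1A, PTGS2, SLC7A11, SAT1, SLC3A2 and CHAC1, nearly all of which are also targets of NRF2, ATF4 or p53. SAT1, the enzyme that breaks down polyamines, rose from 49.4 ± 0.959 to 199 ± 4.33 CPM, and the ferritin genes FTH1 and FTL rose by 0.69 and 0.64. The zinc exporter SLC30A1 rose from 8.36 ± 0.152 to 31.1 ± 0.619 CPM, while metallothioneins and zinc transporters as a list gave 6 higher and 4 lower of 14.

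Genes of the mitochondrial death pathway changed in both directions. BBC3, which encodes the BH3-only killer PUMA, was at 3.32, 3.14 and 2.62 CPM in control and 39.0, 41.4 and 39.2 CPM with EC359 (log2 fold change 3.73, adjusted p = 3.4e-40). PMAIP1, which encodes NOXA, was at 52.0, 50.7 and 53.4 CPM and 142, 153 and 156 CPM, and HRK rose from 0.403 ± 0.0601 to 2.26 ± 0.0779 CPM. The survival factor MCL1 rose as well, from 256 ± 1.68 to 522 ± 8.84 CPM, while BCL2L1 fell (-0.65) and BAX (-0.22) and BAK1 (-0.10), the pore formers, fell slightly. Of 19 BCL2 family genes, 10 were higher, 7 of them at least 2-fold, and 4 lower, with a median of 0.35. Among death receptors, TNFRSF10B, the TRAIL receptor DR5, rose from 75.7 ± 1.16 to 191 ± 2.60 CPM, TNFRSF10A, the receptor DR4, from 8.75 ± 0.292 to 19.2 ± 0.526 CPM, and the decoy receptor gene TNFRSF10D by 1.84. The initiator caspase gene CASP8 (-0.91) and its adaptor FADD (-0.82) fell, and the inhibitor gene BIRC3 rose (1.48). Of 29 genes of this list, 14 were higher and 8 lower, with a median of 0.06.

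CDKN1A (chr6:36676460-36687339), the cell cycle inhibitor p21, was at 16.5, 16.5 and 17.0 CPM in control and 196, 197 and 191 CPM with EC359, a fold change of 11.7 (adjusted p = 4.7e-57). GADD45A, a growth arrest gene, was at 118, 109.7 and 109.5 CPM and 607, 674 and 646 CPM. All EC359 libraries were above the controls in both. CDKN1A, BBC3, GADD45A and PMAIP1 can be activated by p53, and of 30 p53 targets 17 were higher, 9 of them at least 2-fold, and 9 lower, with a median of 0.18. Of the other targets, BTG2 rose from 2.53 ± 0.230 to 10.1 ± 0.832 CPM, SESN2 (1.87) and PLK3 (1.84) rose at least 2-fold, MDM2 rose by 0.43 on the log2 scale, CCNG1 changed by 0.11, and ZMAT3 (-0.15) and DDB2 (0.05) did not pass the test, while TP53I3 (-0.33), XPC (-0.35) and RRM2B (-0.27) fell. PLK2 fell from 764 ± 3.27 to 305 ± 3.87 CPM.

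Regulators of the entry into the cell cycle changed one by one rather than together. CDKN2C, the inhibitor p18 of CDK4 and CDK6, was at 43.2, 42.0 and 40.6 CPM in control and 12.1, 12.3 and 13.4 CPM with EC359 (log2 fold change -1.73, adjusted p = 8.6e-34). SKP2, the ubiquitin ligase subunit that removes the inhibitor p27, was at 45.1, 41.9 and 45.1 CPM and 14.3, 14.4 and 14.1 CPM (log2 fold change -1.63, adjusted p = 2e-32). Every EC359 library was below every control for both. RB1 rose from 6.71 ± 0.145 to 15.2 ± 0.178 CPM, and E2F1 (0.74) and CCNE1 (0.58) rose less than 2-fold. MYC rose by 0.75 on the log2 scale, and its antagonists MXD1, MNT and MXI1 rose more, MXD1 from 2.61 ± 0.461 to 21.0 ± 1.65 CPM, MNT from 18.2 ± 1.32 to 56.7 ± 0.562 CPM and MXI1 from 11.5 ± 0.282 to 23.6 ± 1.73 CPM, and TXNIP, a brake on glucose uptake, fell from 6.15 ± 0.202 to 2.43 ± 0.192 CPM. Of 24 genes of the MYC and MAX network 12 were higher and 7 lower, and of 24 G1 cyclins, CDKs and inhibitors 11 and 8.

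Genes used later in the cycle shifted slightly. Of 54 mitosis genes, 38 were lower and 6 higher, with a median of -0.18, and only BORA, the activator of Aurora A, fell at least 2-fold, from 42.0 ± 0.567 to 17.1 ± 0.575 CPM. CCNB1 (-0.59), CDC20 (-0.58), AURKA (-0.55) and PLK1 (-0.35) fell with them. DNA replication genes were divided, with 17 of 50 higher and 21 lower and a median of -0.03, and PCNA (0.04) did not pass the test. Of 48 recombination and repair genes, 14 were higher and 25 lower, with a median of -0.13, and PALB2, the bridge between BRCA1 and BRCA2, fell most, from 19.2 ± 0.488 to 9.22 ± 0.415 CPM. These shifts are near the size of the scaling effect given above.

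**Figure D3:**
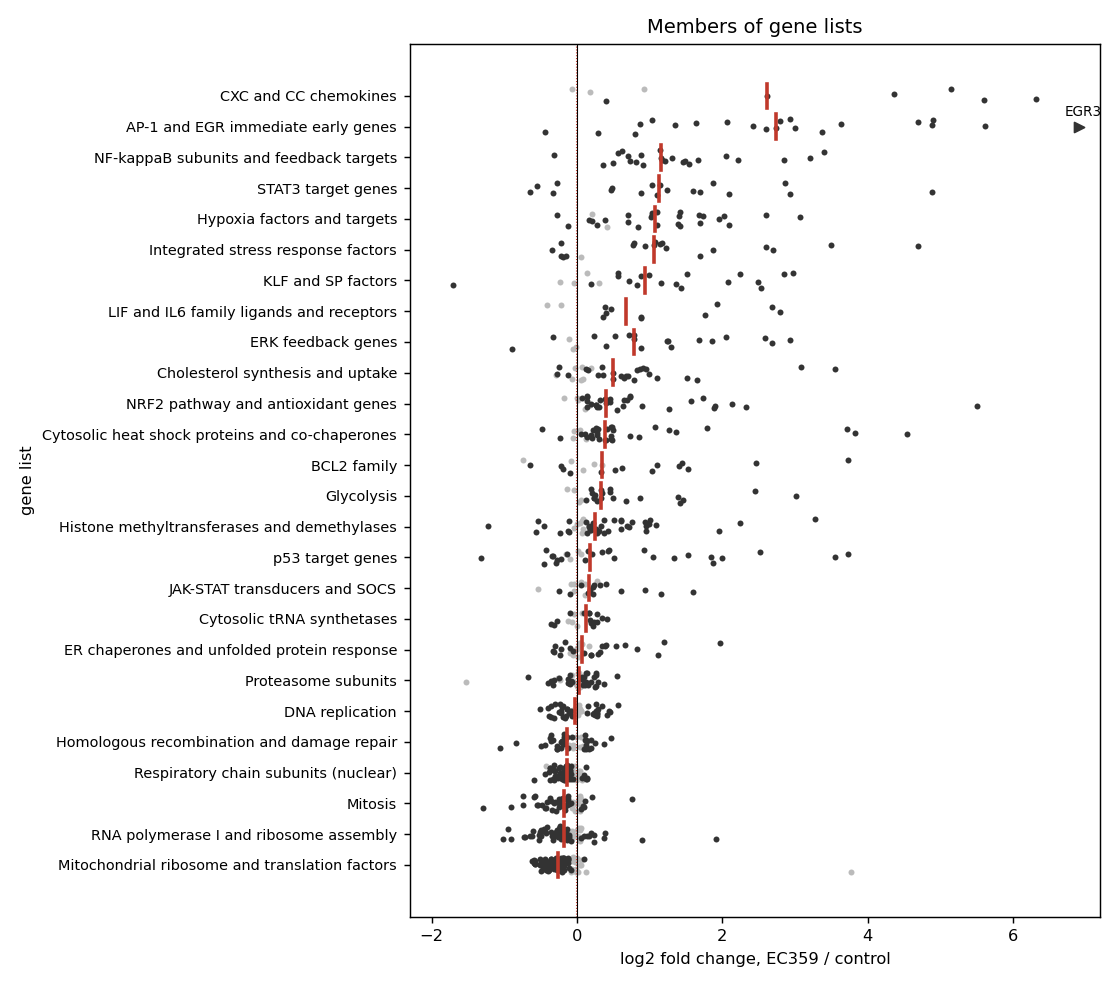
Each row is a gene list and each point a member, placed by its log2 fold change with EC359 on the x axis (black, adjusted p under 0.05; grey, not); the red bar is the median of the list and the dotted line the median of all genes, and EGR3, without a count in control, is a triangle at the right edge. Chemokines and immediate early genes have medians of 2.61 and 2.74, whereas mitochondrial translation, at -0.26, has few members far from 0.

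Small decreases were shared by large sets of housekeeping genes. Of 86 genes of the mitochondrial ribosome and translation, 66 were lower and 1 higher, none of these at least 2-fold, with a median of -0.26. RNA polymerase I and ribosome assembly genes had 51 of 79 lower and 11 higher, with a median of -0.18, and IMP3, a component of the complex that processes 18S rRNA, fell from 33.2 ± 1.86 to 16.4 ± 1.83 CPM. RRN3, the polymerase I initiation factor, is in the list with a log2 fold change of 1.91, but its gene has several placements in the genome and its value is uncertain. Nuclear genes of the respiratory chain had 49 of 76 lower and 6 higher, with a median of -0.14, which is near the size of the scaling effect given above. In Combination against Trametinib, the median of the respiratory chain list was 0.03. There it was -0.22 for mitochondrial translation and -0.25 for polymerase I and ribosome assembly. Cytosolic ribosomal proteins had 53 of 82 higher and 6 lower, with a median of 0.09 that turned under 0 with scaling by total counts.

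The largest single decreases were in genes of many functions. Among genes of at least 10 CPM in control, TMEM177, a mitochondrial membrane protein, fell most, from 36.1, 38.6 and 34.5 CPM in the control libraries to 10.7, 9.60 and 9.34 CPM with EC359 (log2 fold change -1.88, standard error 0.07, adjusted p = 3e-30). MAT2A, which makes the methyl donor S-adenosylmethionine, was at 256, 247 and 255 CPM in control and 80.7, 86.3 and 81.8 CPM with EC359 (log2 fold change -1.61, adjusted p = 1.3e-45). PRMT6, an arginine methyltransferase, fell from 33.3 ± 1.44 to 11.2 ± 0.211 CPM. For these genes no library of one group reached the other group, which was a condition for naming them among the largest changes. INTS5, a subunit of the Integrator complex that ends transcripts of small nuclear RNAs, fell from 42.4 ± 2.32 to 13.9 ± 0.984 CPM, and CPT2 and ALDH1B1, both mitochondrial enzymes, from 13.7 ± 0.113 to 4.82 ± 0.197 CPM and from 51.1 ± 1.38 to 17.6 ± 0.470 CPM. SDPR (also called CAVIN2, a coat protein of caveolae) had a log2 fold change of -1.83, and CCDC71 (-1.75), LOC730101 (-1.69), SGK223 (-1.63), ZNF239 (-1.63), C17orf97 (-1.5) and NHLRC1 (-1.49) fell as well. In reads, the largest losses were in cytoskeletal genes: ACTB, beta-actin, was at 7483, 7626 and 7775 CPM in control and 5008, 4696 and 4837 CPM with EC359, and ACTG1, gamma-actin, at 3733, 3783 and 3736 CPM and 2909.9, 2800.1 and 2827 CPM. ACTB and ACTG1 are common reference genes, and their log2 fold changes were -0.65 and -0.40. The list of actin and SRF targets had 14 of 32 higher, FLNC most, from 2109 ± 67.0 to 5182 ± 94.2 CPM, and 13 lower.

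Some families defined by symbol alone had more members lower than higher. Of 481 ZNF zinc finger genes tested, many of which encode repressors, 259 were lower, 51 of them at least 2-fold, and 77 higher, with a median of -0.32. Antisense genes had 115 of 295 lower and 17 higher, with a median of -0.37, and LINC genes 49 of 135 lower and 11 higher. HOX genes, which mark position along the body axis, had 14 of 32 lower, among them HOXA11 (-1.57) and HOXA10 (-1.11), and 3 higher. Among other families, solute carriers had 73 of 224 higher and 56 lower, TRIM genes 13 of 51 and 13, keratins 3 of 13 and 4, and MIR host genes 3 of 12 and 2. Collagens had 11 of 25 higher and 2 lower, DUSP phosphatases 9 of 20 and 2, snoRNA host genes 12 of 22 and 4, and histone genes, whose mRNAs mostly lack the poly(A) tail used for selection, 5 of 43 and 3. Counting used strand, so antisense reads were assigned apart from their sense partners.

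Among genes with 1 placement and at least 4 CPM, the downregulated genes were mostly short and had few exons. Most of the 415 downregulated genes lay under 4 CPM and are not in the classes that follow. The 11112 genes with 1 placement whose higher group mean reached 4 CPM were divided by span, and 5.15% of those spanning up to 5 kb fell at least 2-fold, 1.92% of those from 5 to 20 kb, 0.816% from 20 to 50 kb, 0.215% from 50 to 100 kb, and 0% of the 662 genes over 200 kb. The median span was 6.98 kb for genes that fell, 22.2 kb for genes that rose and 29.3 kb for all of them. Upregulated genes were also more frequent among short genes, 6.33% up to 5 kb against 2.57% over 200 kb, but with no minimum fold change the direction turned with length. In the shortest class 25.5% were higher and 47.0% lower, and in the class over 200 kb 52.3% were higher and 12.4% lower, with medians of -0.11 and 0.18 on the log2 scale. By exons, 10.8% of the 295 genes with 1 merged exon fell at least 2-fold and 7.8% rose, against 0% and 1.87% of the 1658 genes with over 20. The shares also differed by level: of genes over 4 and up to 16 CPM in control 3.47% fell at least 2-fold, against 0.151% of the 662 genes over 256 CPM. These shares are a description with no test, and the part of level in the differences by length was not tested.

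**Figure D4:**
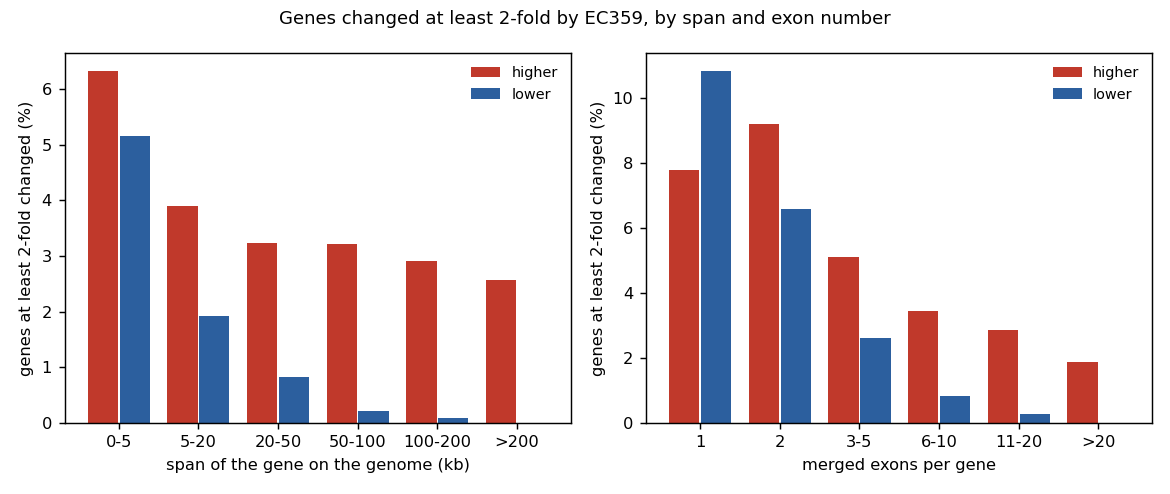
Bars give the percentage of genes that rose (red) or fell (blue) at least 2-fold with EC359, in classes of gene span in kb (left) and of merged exons per gene (right). Only the 11112 genes with 1 placement and at least 4 CPM in the higher group mean are counted. The share that fell goes from 5.15% in the shortest class to 0% in the longest, and from 10.8% with 1 exon to 0% with over 20.

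In metabolism, genes of cholesterol uptake and synthesis rose. INSIG1, which holds the sterol sensor SCAP in the endoplasmic reticulum and is itself a target of the sterol factor SREBP2, was at 7.18, 7.42 and 6.83 CPM in control and 83.4, 85.1 and 81.9 CPM with EC359 (fold change 11.7, adjusted p = 4.5e-50). Every EC359 library lay above every control library. HMGCS1, an early enzyme of the pathway, rose from 29.0 ± 0.550 to 91.1 ± 3.85 CPM, and NPC1, which exports cholesterol from lysosomes, from 56.0 ± 1.35 to 159.6 ± 5.65 CPM. Of 32 genes, 22 were higher and 3 lower, with a median of 0.49. Fatty acid synthesis genes had 12 of 22 higher and 3 lower, with SCD, the desaturase, rising from 32.8 ± 1.38 to 87.6 ± 0.609 CPM, but their median of 0.13 was under 0 when scaled by total counts.

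Genes of glucose uptake and hypoxia targets rose, while HIF1A mRNA fell. The glucose transporter SLC2A3 was at 24.3, 23.7 and 21.3 CPM in control and 191, 185 and 180.5 CPM with EC359, and HK2, the hexokinase of tumor cells, at 12.8, 12.2 and 13.7 CPM and 72.2, 67.5 and 71.3 CPM. Of 24 glycolysis genes, 20 were higher and 0 lower, with a median of 0.33; the regulators SLC2A1 (1.39), PFKFB3 (1.46) and PFKFB4 (1.42) rose more than enzymes such as GAPDH (0.28) and PKM (0.25). NDRG1, a protein induced by stress and differentiation, rose from 41.0 ± 1.01 to 345 ± 7.6 CPM and VEGFA, the angiogenic factor, from 10.2 ± 0.897 to 43.3 ± 1.81 CPM. DDIT4, an inhibitor of mTORC1 that is also an ATF4 target, went from 8.73 ± 0.550 to 52.9 ± 0.851 CPM. Of 28 hypoxia factors and targets, 24 were higher, 17 of them at least 2-fold, and 2 lower, with a median of 1.07. EPAS1, which encodes the related factor HIF2alpha, rose by 1.11.

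Transcription and chromatin regulators were a further group. Of 22 KLF and SP factors, 17 were higher, 10 of them at least 2-fold, and KLF15 was the one that fell (-1.70), with a median of 0.94. KLF6 was at 261, 257 and 268 CPM in control and 1539, 1507 and 1509 CPM with EC359, and KLF2 rose from 54.5 ± 2.03 to 426 ± 5.93 CPM. KDM6B, the demethylase that removes the repressive mark H3K27me3, was at 11.3, 12.4 and 11.6 CPM and 110.5, 115 and 115 CPM (log2 fold change 3.27, adjusted p = 3.8e-22). KDM7A (2.24) and KDM3A (1.95), demethylases of H3K9 and other sites, also rose, and of 46 histone methyltransferases and demethylases 31 were higher and 8 lower, with a median of 0.24. In the circadian clock, the repressors NR1D1 and NR1D2 rose from 4.11 ± 0.227 to 22.8 ± 0.688 CPM and from 55.4 ± 2.89 to 142 ± 2.56 CPM, RORA, the activator that competes with them, from 2.98 ± 0.237 to 17.2 ± 0.768 CPM, and BHLHE40 from 101 ± 1.82 to 398 ± 11.8 CPM, while DBP (-0.52) fell and ARNTL (-0.07) did not pass the test. Of 20 clock genes 12 were higher and 3 lower.

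Splicing regulators changed in both directions. Over all 45 SR, hnRNP and kinase genes, 19 were higher and 18 lower, with a median of 0.02. The examples that follow were picked after their values were seen. The kinases CLK1, CLK3 and CLK4, which phosphorylate SR proteins, rose, CLK1 from 25.1, 25.8 and 25.5 CPM in the control libraries to 111, 116 and 108 CPM with EC359 and the others by 1.03 and 0.98 on the log2 scale. The SR protein genes SRSF7 (-0.64), SRSF6 (-0.55), SRSF5 (-0.43), SRSF1 (-0.43) and SRSF3 (-0.40) and the related TRA2A (-0.45) and TRA2B (-0.50) fell, each less than 2-fold. CLK2 has several placements in the genome and is not described.

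Further signaling and turnover genes changed. In the YAP and TEAD pathway, CTGF rose from 80.7 ± 2.47 to 250.4 ± 6.58 CPM while CYR61, the other standard YAP target, changed by 0.20, and AJUBA, a scaffold of the pathway, fell from 230.2 ± 8.30 to 104 ± 4.56 CPM, with 13 of 23 genes higher and 6 lower. In TGF-beta and BMP signaling, the inhibitor SMAD7 rose (1.16), and the BMP target ID1 fell from 118 ± 3.91 to 56.7 ± 2.06 CPM; 19 of 39 members were higher and 7 lower. NOTCH1 rose from 74.1 ± 1.73 to 183 ± 8.32 CPM, and its ligand JAG1 (1.44) and target HES1 (1.84) rose too, with 14 of 25 NOTCH and WNT genes higher and 2 lower. Autophagy and lysosome genes were mostly higher, 35 of 51 against 5 lower, with a median of 0.21. GABARAPL1, a protein of the autophagosome membrane, rose from 22.7 ± 0.815 to 124 ± 0.901 CPM and the starter kinase ULK1 from 27.2 ± 1.08 to 83.0 ± 1.76 CPM.

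The Combination and Trametinib libraries gave a second, separate measure of the EC359 effect. In Combination against Trametinib, 5241 genes (35.3% of those tested) passed the test upward and 4895 (32.9%) downward. Of the 623 genes upregulated by EC359 alone, 571 (91.7%) were higher there too and 2 were lower, and of the 415 downregulated genes 346 (83.4%) were lower and 2 higher. The median log2 fold change of the 623 genes was 1.36 without trametinib and 1.43 with it, and that of the 415 genes -1.29 and -1.45. LIF rose by 1.18 in the presence of trametinib, SOCS3 by 1.74, CXCL8 by 6.25, HMOX1 by 4.81, ATF3 by 4.50 and CDKN1A by 3.45 on the log2 scale. The first values of the medians come from the libraries that chose the genes and are a description.

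For some genes the size of the EC359 effect depended on trametinib, which was asked with a test of the difference of both effects. By edgeR's quasi-likelihood test, 4506 of all genes (30.3%) and 116 of the 177 named genes tested had an adjusted p-value under 0.05 for that difference, and all 30 of the largest changes kept their direction. DUSP6, the ERK phosphatase that MEK inhibition is known to lower, rose by 1.86 without trametinib and by 4.03 with it, where it went from 0.0953 ± 0.0836 CPM in Trametinib to 1.54 ± 0.387 CPM in Combination, both few counts (difference 2.17, adjusted p = 5.7e-06). BHLHE40 went the other way, rising by 1.98 without and 0.47 with trametinib (difference -1.51, adjusted p = 2.6e-36). Among chemokines the effect was smaller with trametinib for CXCL3 (5.15 and 3.26) and CXCL1 (4.36 and 3.24), whereas the difference for CXCL8 was -0.06 (adjusted p = 0.83). TRAF1, an NF-kappaB target, had log2 effects of 1.67 and 0.18, the latter not past the test. KLF4 (2.24 and 3.54), HBEGF (1.95 and 3.08) and PLK3 (1.84 and 3.04) rose more in its presence. LIF rose less in its presence (difference -0.59, adjusted p = 1.1e-09). The differences for SOCS3 (0.14, adjusted p = 0.15) and LIFR (-0.21, adjusted p = 0.084) did not pass the test.

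**Figure D5:**
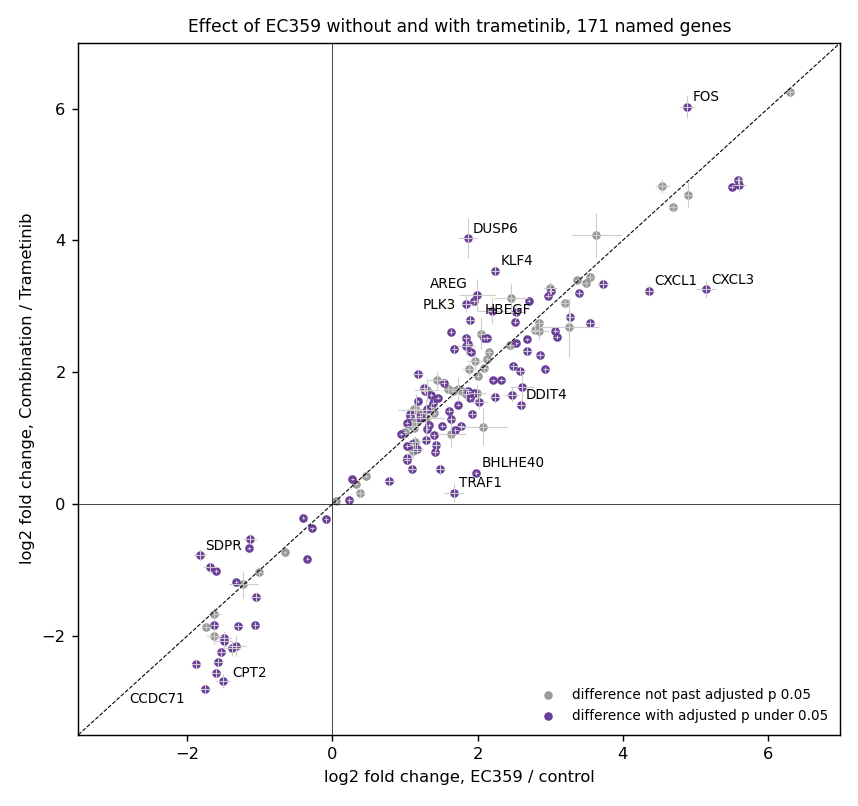
Each point is one of 171 named genes with 1 placement; the x axis is the log2 fold change of EC359 against control, the y axis that of Combination against Trametinib, bars are standard errors, and the dashed line marks equal effects. Purple points, 114 of them, differ between both settings at an adjusted p under 0.05, and labels mark differences of at least 1 on the log2 scale, such as DUSP6 above the line and BHLHE40 below it.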

How the data were processed

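Polyadenylated RNA was sequenced as stranded libraries with paired reads of 100 bp. The deposited values are estimated counts (expected counts) per gene: per the file headers, the authors ran featureCounts 1.5.0-p1 on reverse-stranded pairs with a minimum mapping quality of 2, counted on hg38 gene models, and split each read that had several placements or overlapped several genes into fractions. The submitters' processing notes name bcl2fastq and HISAT2, with versions not given in the sources used here. The files were not normalized.

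Estimated counts were rounded to whole numbers. In R 4.3.3 with edgeR 4.0.16, filterByExpr with a minimum count of 10 and a minimum total of 15 left 14865 of 26485 genes, libraries were scaled by TMM, and one robust quasi-likelihood model (glmQLFit, glmQLFTest) was fitted to the 4 groups of 3 libraries. EC359 was compared with control, Combination with Trametinib, and both effects with each other. P-values were adjusted by Benjamini-Hochberg over all genes tested (n = 14865), and genes past 0.05 and 2-fold were called. Intervals are at 95%. A count of 0 allows up to 3 counts, which covers counting error only.

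The text names the 15 largest changes each way among called genes of at least 10 CPM with groups apart, up to 6 called genes of at least 1 CPM and marked key genes per list, the 5 largest changes in CPM each way, up to 8 genes near silent in control (under 0.5 CPM, at least 5 CPM with EC359), and genes of LIFR signaling and cell death. For the 15 each way, groups apart was a condition of choice, so their separation adds nothing to the test. Other members are examples picked after their values were seen. The 44 hand-written lists, the 13 families defined by symbol and the members were chosen with earlier results of these data known. Promoters are from RefSeq (GRCh38.p14), in which 11387 of the 14865 genes (76.6%) had an entry, too few for comparisons over all genes. Of the lists, 8 of 9 chemokines, 20 of 24 NF-kappaB genes and 29 of 35 heat shock genes had one. The test of EC359 against control was tried on simulated counts of 14707 genes, and recovered 198 of 200 genes made to change, with 3 false calls. Those genes all lay over 2 CPM and changed by 1.5 on the log2 scale, as many up as down, and no other gene changed. The real changes had many sizes and reached lower levels, so this recovery does not carry over to them. Alternatives were DESeq2 1.42.0, other scaling and filters, values left unrounded, the replicate number as a block and a fit of only the groups compared. Further ones were glmTreat at 1.5-fold, no minimum fold change, and each control or EC359 library left out in turn. Blots and cell assays of the study were not analysed here, and some genes of the lists are not reported here.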

Additional observations from a re-analysis of the deposited data

Results flagged for a closer look

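The effect of EC359 was measured both without trametinib (EC359 against control) and with it (Combination against Trametinib), and for 16 of the genes chosen for naming the log2 effects differed by at least 1 and the difference passed edgeR's quasi-likelihood test at an adjusted p of 0.05. Values are the log2 effect with trametinib minus that without. DUSP6 (2.17), KLF4 (1.30), PLK3 (1.2), AREG (1.18), FOS (1.15) and HBEGF (1.12) rose more with trametinib on the log2 scale. Such a difference compares ratios and does not say that the gain in CPM was larger. FOS and DUSP6 did not hold at least 10 counts in every library of the series, and AREG was low in control, so the differences for these genes rest partly on few counts. CXCL3 (-1.89), BHLHE40 (-1.51), CXCL1 (-1.12) and DDIT4 (-1.09) rose less, and TRAF1 (-1.49) rose without trametinib and did not pass the test with it. CPT2 (-1.18) and CCDC71 (-1.05) fell more with trametinib, and SDPR (1.06) fell less. The differences for CDKN1C (-1.21) and RRN3 (-3.54) are uncertain, since both genes have several placements in the genome. These differences were not checked with single libraries left out.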

How the results depend on the processing

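The counts of called genes kept their size, within 1.5 times, under 82 of 84 combinations of count and alternative. Scaling by total counts stayed within that range but turned the split of genes at least 2-fold changed. It gave 475 higher and 589 lower, in place of 623 and 415. Without a minimum fold change, 9077 genes were called in place of 1038, and when every library had to hold at least 10 counts, which left 13470 genes to test, 236 genes were called lower in place of 415. Leaving out each control or EC359 library in turn gave 1024 to 1053 called genes. With the replicate block, 1035 genes were called, of which 1027 were shared with the fit without it, but the numbers only name the libraries: deviations from the group means correlated between equally numbered libraries with r of -0.019, -0.020 and -0.031. Of the 177 named genes tested, 175 passed the adjusted p threshold, and 1 of them lost it in some alternative. Scaling by total counts gave all genes a median of -0.15 and turned GPX4 (-0.082) and 14 list medians negative: the median of Cytosolic tRNA synthetases (-0.0033), the median of Fatty acid synthesis (-0.0065), the median of DUSP phosphatases (-0.033), the median of Ferroptosis and iron handling (-0.042), the median of Interferon response and antigen presentation (-0.044), the median of Cytosolic ribosomal proteins (-0.047), the median of G1 cyclins, CDKs and CDK inhibitors (-0.067), the median of ER chaperones and unfolded protein response (-0.070), the median of Death receptors, caspases and inhibitors (-0.072), the median of Solute carriers (-0.077), the median of Proteasome subunits (-0.10), the median of SR proteins, hnRNPs and splicing kinases (-0.11), the median of TRIM genes (-0.12) and, within the spread between libraries, the median of Replication-dependent histones (-0.084). With each control or EC359 library left out in turn, the median of SR proteins, hnRNPs and splicing kinases lay between -0.014 (without Control replicate 2) and 0.031. The median of TRIM genes lay between -0.021 (without Control replicate 1) and 0.031. Of the 163 named genes past 2-fold, 16 fell under it in at least 1 alternative. For the 5788 genes that did not pass the adjusted p threshold, the 95% interval of the log2 fold change reached a median of 0.25 to either side. Genes with several placements cannot be resolved.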
